A study of Mus musculus with 2 samples.

Results

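Cycling CD4 T cells were taken as the cells with at least 3 unique molecular identifiers (UMIs, each standing for 1 captured transcript) in the sum of Mki67, Top2a, Cdk1, Birc5 and Ube2c. These 5 genes act in DNA replication and mitosis, and their measured counts alone chose the cells. The rule found 176 of 508 cells in all. It took 106 of 352 cells (30.1%, exact Clopper-Pearson 95% interval 25.4% to 35.2%) from the library of wild-type hosts. From the library of MARCH1-/- hosts it took 70 of 156 cells (44.9%, interval 36.9% to 53%).

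The donors were wild-type mice sensitized by aspiration of house dust mite extract on day 0 and again on days 7 to 11. Lung CD4 T cells of these donors were labelled on day 14 with Cell Trace Violet, a dye that each division dilutes, and moved into hosts that were either C57BL/6 or MARCH1-/-. The hosts were then given the extract, and donor cells with little dye left were sorted from their lungs 4 days after that challenge. The deleted gene encodes an E3 enzyme that, in dendritic cells and B cells, tags MHC class II and the costimulatory ligand CD86 for removal from the surface. The deletion thus lies in the host and not in the sequenced T cells. The labels give no age, sex, donor strain or number of mice for either library. Both libraries were made from polyadenylated RNA by droplet capture of transcript 3' ends (10x Genomics, kit version v3.1). There was 1 library per host, so no difference between hosts has a replicate check, no test was run, and host and library cannot be told apart. Intervals are 95%, cover counting error only, and treat each UMI as independent, so they are too narrow where a handful of cells holds most UMIs of a gene.

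A T cell that is activated through its receptor grows and divides, and a dividing cell makes the proteins of the replication fork, the spindle and the chromatin of a new genome. Helper T cells also carry programs set by master regulators. GATA3 directs the type 2 program with interleukins 4, 5 and 13, which drive IgE, eosinophils and mucus in the allergic airway. T-bet directs the type 1 program with interferon gamma, FOXP3 the regulatory program, and BCL6 the follicular program. Low dye shows that a cell has divided since labelling, whereas the 5 marker transcripts were used here as a sign that a cell was in the cycle when taken.

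The markers of the rule are shown with the 200 bases before their RefSeq transcription start (GRCm38.p6), because genes of late cell cycle often share the CHR element TTTGAA and the CCAAT box. Capitals mark TTTGAA and CCAAT on either strand (on the opposite strand they read TTCAAA and ATTGG). No data here measured binding at these windows.
Mki67 (chr7:135716380-135716579, minus strand): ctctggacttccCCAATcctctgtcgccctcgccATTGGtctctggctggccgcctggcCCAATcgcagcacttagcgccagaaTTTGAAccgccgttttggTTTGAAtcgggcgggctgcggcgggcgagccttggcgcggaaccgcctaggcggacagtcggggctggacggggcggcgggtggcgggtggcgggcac
Top2a (chr11:99024190-99024389, minus strand): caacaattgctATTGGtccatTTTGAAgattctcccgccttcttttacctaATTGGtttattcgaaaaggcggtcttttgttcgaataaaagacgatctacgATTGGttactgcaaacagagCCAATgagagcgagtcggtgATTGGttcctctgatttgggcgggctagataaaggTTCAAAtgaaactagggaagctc
Cdk1 (chr10:69352913-69353112, minus strand): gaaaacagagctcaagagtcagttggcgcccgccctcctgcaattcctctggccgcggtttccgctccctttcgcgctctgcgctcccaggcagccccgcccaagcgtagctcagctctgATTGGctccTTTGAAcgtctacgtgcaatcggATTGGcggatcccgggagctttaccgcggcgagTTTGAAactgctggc
Birc5 (chr11:117849037-117849236, plus strand): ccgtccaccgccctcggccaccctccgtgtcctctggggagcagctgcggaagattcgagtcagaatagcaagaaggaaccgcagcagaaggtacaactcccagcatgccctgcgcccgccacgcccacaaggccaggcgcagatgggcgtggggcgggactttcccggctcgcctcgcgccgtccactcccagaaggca
Ube2c (chr2:164769729-164769928, plus strand): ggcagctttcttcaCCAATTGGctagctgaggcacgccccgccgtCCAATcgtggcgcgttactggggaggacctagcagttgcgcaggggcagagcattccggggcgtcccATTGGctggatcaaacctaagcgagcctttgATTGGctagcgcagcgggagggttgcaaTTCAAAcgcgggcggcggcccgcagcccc

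Of these 5 windows, 4 held both motifs. Mki67 had 2 copies of TTTGAA and 3 of CCAAT, Top2a 2 and 5, Cdk1 2 and 2, and Ube2c 1 and 5, while neither run of letters was in the Birc5 window. Among all 32851 RefSeq windows of that length, 12.5% held TTTGAA, 29.3% held CCAAT and 3.69% held both.

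Mki67, which coats mitotic chromosomes, had 787 UMIs in the cycling cells of the wild-type host and 788 in those of the MARCH1-/- host, with at least 1 in 96 of 106 and 63 of 70 cells. Top2a, the topoisomerase that untangles sister chromatids, had 887 and 838 UMIs. Birc5, the survivin subunit of the chromosomal passenger complex, had 369 and 423, and Ube2c, a ubiquitin-conjugating enzyme of the anaphase-promoting complex, had 347 and 469. Cdk1, the kinase that starts mitosis, was the sparsest with 106 and 191 UMIs in 44 and 38 cells. The summed markers had a median of 13 UMIs per cycling cell (range 3 to 98) in the wild-type host and 19 (range 3 to 180) in the MARCH1-/- host. Just inside the rule, 16 and 12 cells had exactly 3 marker UMIs, and just outside it, 18 and 8 cells had exactly 2.

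**Figure D1:**
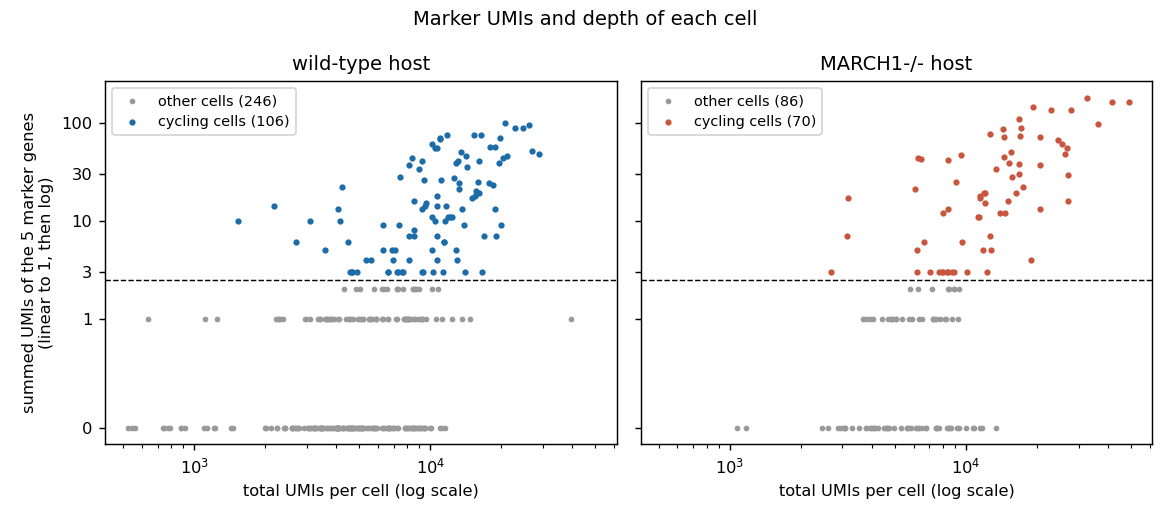
Summed UMIs of the 5 marker genes (y axis, linear up to 1 and then logarithmic) against total UMIs (x axis, log scale) for every cell of the wild-type host library (left) and the MARCH1-/- host library (right). Coloured points above the dashed line are the 106 and 70 cycling cells, and they lie toward the deep end of each library, with medians of 10728 and 12752 UMIs.

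Because the rule counts raw UMIs, it also favours cells with more RNA. Cycling cells held a median of 10728 UMIs and 2741 genes in the wild-type host and 12752 UMIs and 3421 genes in the MARCH1-/- host. The other cells held 4803 and 5770 UMIs. Cycling cells were 30.1% and 44.9% of cells but held 48% and 66.7% of the UMIs of all cells. No cell barcode was shared by the libraries. Levels below are summed UMIs scaled to 1e6 UMIs of the same cells (CPM), and ratios are log2 of such levels. Of the genes with at least 10 UMIs, the median gene was 0.23 higher (log2) in cycling cells of the MARCH1-/- host than in those of the wild-type host and 65.2% of such genes were higher, and host ratios are read against that shift.

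The label CD4 T cell was borne out by the markers. All 106 and all 70 cycling cells held a UMI of a CD3 chain, and 92 and 62 held a UMI of Cd4. The median cycling cell showed 10 of 12 CD4 T cell markers in the wild-type host and 11.5 of 12 in the MARCH1-/- host. Of the CD8 genes, Cd8a was at 0 in both, while Cd8b1 had a UMI in 12 of 106 and 8 of 70 cycling cells. Of 14 macrophage and monocyte markers, 3 and 2 had any UMI, their sum was 182 and 144 CPM, and Lyz2 and Csf1r were at 0. The sum of 9 B cell markers differed between the hosts, 29.2 CPM against 119 CPM, with Ms4a1 and Pax5 at 0 in both. No cycling cell had 3 B cell markers, and the part of these transcripts in other results was not tested.

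In cycling cells of both hosts, UMIs of type 2 cytokines were detected more often than UMIs of type 1, regulatory or follicular genes. These gene sets differ in size and abundance, with 846 CPM for Il13 and 25.9 CPM for Foxp3 in the wild-type host. Detection thus does not tell how often each program was carried. After thinning every cell to 2000 UMIs, a UMI of Il4, Il5 or Il13 remained in 36 of 105 cycling cells of the wild-type host (34.3%, exact binomial interval 25.3% to 44.2%) and in 20 of 70 of the MARCH1-/- host (28.6%, 18.4% to 40.6%). These intervals overlap widely. Without thinning the shares were 50% and 47.1%. The thinned shares in the other cells were 27% and 17.9%. RNA free in the droplets could account for 0.436% and 0.0629% of cells, from the mean UMIs of barcodes with under 100 UMIs, an estimate chosen after a first one proved too loose.

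Genes of these other programs were each found in under 10 cycling cells per library at 2000 UMIs. Type 1 genes (Ifng, Tbx21) were seen in 6.67% and 5.71% of cycling cells of the wild-type and MARCH1-/- host. Foxp3, the regulatory factor, was seen in 4.76% and 4.29%, and in 17% and 11.4% without thinning. Follicular genes (Bcl6, Cxcr5, Il21) were seen in 3.81% and 4.29%. The thinned shares rest on 3 to 7 cells each, and none of them differed between hosts beyond its interval.

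The total of type 2 cytokine transcripts differed between hosts far more than the share of cells that held them. Cycling cells of the wild-type host had 1401 UMIs of Il4, Il5 and Il13 (1135 CPM, Poisson interval 1077 to 1197), and those of the MARCH1-/- host had 382 (363 CPM, 328 to 402). The level was 3.12-fold lower in the MARCH1-/- host (2.79 to 3.51), a log2 ratio of -1.64 (-1.81 to -1.48). The intervals of the levels do not overlap. In the other cells of the same libraries the levels were 1101 and 530 CPM, a log2 ratio of -1.05 (-1.24 to -0.87). The difference of these ratios was -0.59 (-0.84 to -0.34), but it became 0.07 when every cell was thinned to 2000 UMIs and 0.22 without the 5 richest cells of each class.

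Few cells held most of these transcripts. In the wild-type host 5 of 106 cycling cells held 55.9% of the type 2 cytokine UMIs, and the richest held 228. In the MARCH1-/- host 5 of 70 held 58.4%, and the richest held 57. Leaving those 5 cells out of each class left the host ratio within cycling cells at -1.72. All 3 cytokines were seen together in 10 of 106 and 6 of 70 cycling cells.

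The genes Il4, Il13 and Il5 lie within 1 stretch of chromosome 11 (GENCODE M21 on GRCm38). Il4 spans positions 53602982 to 53618669, Il13 53631324 to 53634702, and Il5 53720794 to 53725106. Their 200 bases before the RefSeq start (GRCm38.p6) are printed because these 3 genes define the type 2 sum compared above. Capitals mark GATA on either strand (TATC on the opposite strand), the core letters bound by GATA3. At least 1 such match is in 45.4% of all windows of that length.
Il4 (chr11:53618666-53618865, minus strand): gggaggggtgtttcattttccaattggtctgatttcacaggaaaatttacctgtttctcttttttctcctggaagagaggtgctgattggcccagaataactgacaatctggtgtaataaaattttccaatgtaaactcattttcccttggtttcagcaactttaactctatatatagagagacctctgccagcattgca
Il13 (chr11:53634703-53634902, minus strand): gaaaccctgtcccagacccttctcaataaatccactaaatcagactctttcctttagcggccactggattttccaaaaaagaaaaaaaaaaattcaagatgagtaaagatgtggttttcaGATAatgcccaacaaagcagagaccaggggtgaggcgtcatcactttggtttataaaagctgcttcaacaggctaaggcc
Il5 (chr11:53720594-53720793, plus strand): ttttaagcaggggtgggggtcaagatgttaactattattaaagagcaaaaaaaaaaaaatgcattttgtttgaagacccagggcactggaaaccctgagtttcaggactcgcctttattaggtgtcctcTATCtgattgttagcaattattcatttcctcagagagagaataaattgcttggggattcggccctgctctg

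The Il13 and Il5 windows held 1 match each and the Il4 window held 0, which says only where those letters lie.

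Il13, which acts on airway epithelium and smooth muscle, made up most of the signal, with 1044 UMIs (846 CPM, 796 to 899) against 289 (275 CPM, 244 to 309). Its log2 ratio between hosts was -1.62 (-1.81 to -1.43) in cycling cells and -0.72 in the other cells. Il5, the growth factor of eosinophils, had 162 UMIs in 19 cells against 19 UMIs in 9 cells. Its ratio was -2.86 (-3.63 to -2.17), beside -3.58 in the other cells. Il4, which drives the IgE switch, had 195 UMIs in 26 cells against 74 UMIs in 24 cells. Its ratio was -1.17 (-1.57 to -0.77), but it was 0.11 once cells were thinned to 2000 UMIs. Its unthinned share of cells was 24.5% and 34.3%.

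Gata3, the type 2 master regulator, did not follow the cytokines. It had 370 UMIs (300 CPM, 270 to 332) in cycling cells of the wild-type host and 390 (371 CPM, 335 to 410) in those of the MARCH1-/- host, seen in 81 of 106 and 63 of 70 cells. The ratio of 0.31 (0.10 to 0.52) lay close to the median gene. Il1rl1, the receptor for interleukin 33, had 182 and 146 CPM. Its ratio of -0.32 (-0.62 to -0.02) became 0.09 with cells weighted equally. Ccr8, a chemokine receptor of type 2 and regulatory cells, was found in 30 of 106 against 3 of 70 cycling cells. It had 59 UMIs against 6 and a ratio of -3.07 (-4.57 to -1.86), beside -3.66 in the other cells. Ccr4, another chemokine receptor of type 2 cells, went the other way with 13 UMIs in 8 cells against 48 UMIs in 30 cells, a ratio of 2.12 (1.21 to 3.12).

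Areg, the epidermal growth factor family ligand amphiregulin, had opposite host ratios of summed UMIs in cycling and other cells. Cycling cells had 459 CPM in the wild-type host and 218 CPM in the MARCH1-/- host, while the other cells had 288 and 740 CPM. The log2 ratio between hosts was -1.07 (-1.30 to -0.85) in cycling cells and 1.36 in the others. Areg was seen in 43 of 106 and 26 of 70 cycling cells, and 5 cells held 303 of 566 and 156 of 229 UMIs. Among the other cells, 5 cells held 161 of 385 and 230 of 388 UMIs. The shares of cells did not go opposite ways. At 2000 UMIs per cell they were 19% and 22.9% of cycling cells and 19% and 25% of other cells.

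**Figure D2:**
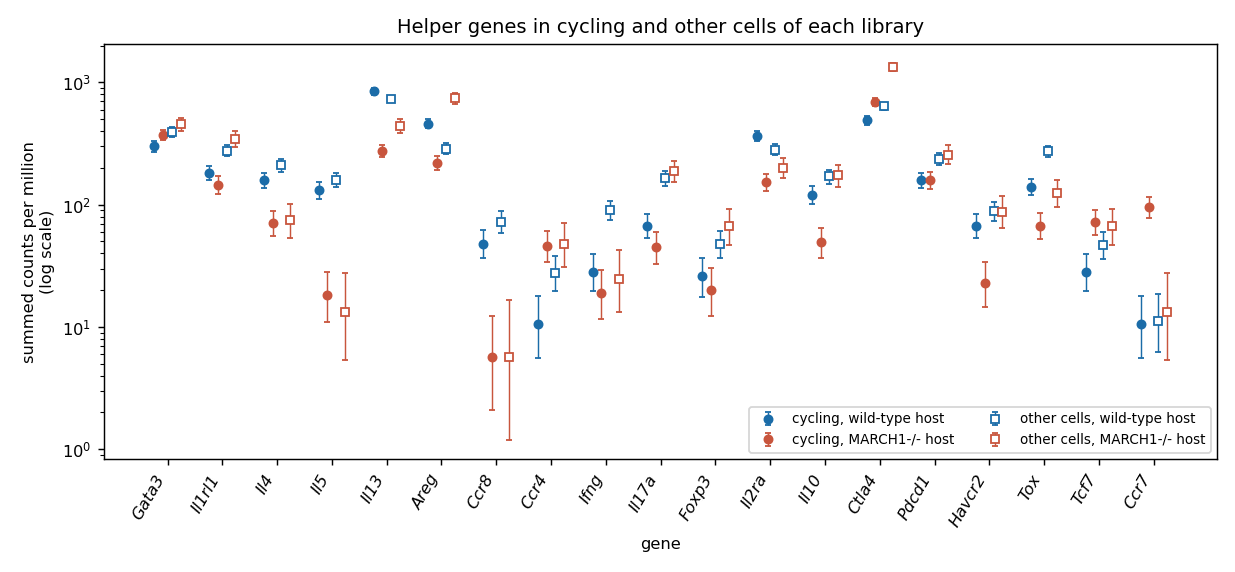
Summed CPM (y axis, log scale) of 19 helper genes in cycling cells (filled circles) and other cells (open squares) of the wild-type host (blue) and the MARCH1-/- host (red), with Poisson 95% intervals. In cycling cells Il5, Il13 and Ccr8 are lower and Ccr4, Tcf7 and Ccr7 higher in the MARCH1-/- host, while Gata3 and Pdcd1 lie close together.

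Of the 37 genes of the type 2 list, 27 had at least 10 UMIs in the cycling cells. Their median host ratio was -0.53, with 8 higher and 19 lower in the MARCH1-/- host, against 0.23 for all genes. Of the 21 with at least 50 UMIs, 7 were at least 2-fold lower, namely Ccr8, Il5, Il13, Il4, Areg, the protease gene Furin (521 UMIs against 158) and, named after its values were seen, Calca (123 against 18). Ccr4 alone was at least 2-fold higher. Over all 5044 genes with at least 50 UMIs, 3.23% were at least 2-fold lower and 7.59% at least 2-fold higher. Those are 163 and 383 genes, and 304 and 157 once ratios were centred on the median gene. Rbpj, the DNA-binding partner of Notch, and Maf, a factor that promotes Il4 and Il10, had ratios of -0.91 and -0.56.

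The type 1 and cytotoxic list had the same median of -0.53 over 24 genes (7 higher, 17 lower), but only 1 of its 14 genes with at least 50 UMIs was at least 2-fold lower and 0 were higher. Ifng had 35 UMIs against 20 in 15 and 6 cells, and Gzmb, the cytotoxic protease, had 34 against 29. The type 17 list had a median of 0.37 over 15 genes (11 higher, 4 lower), and of -0.41 with cells weighted equally. Il17a had 83 UMIs against 47, with 72 and 46 of them in 5 cells.

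The regulatory list had a median of -0.22 over 24 genes (9 higher, 15 lower). Foxp3 had 32 UMIs in 18 cells against 21 UMIs in 8 cells, a ratio of -0.38 (-1.24 to 0.46). Il2ra, the high-affinity chain of the interleukin 2 receptor, was lower in the MARCH1-/- host with 366 against 152 CPM, a ratio of -1.27 (-1.54 to -1.0). Il10, an anti-inflammatory cytokine, had 149 UMIs in 30 cells against 52 UMIs in 14 cells. Its ratio of -1.29 (-1.77 to -0.82) stood beside 0.03 in the other cells. Ikzf2, which encodes Helios, had 107 and 125 CPM.

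The follicular list had a median of 0.48 over 16 genes (11 higher, 5 lower), led by surface and adaptor genes and not by its defining genes. Slamf6, a homotypic receptor, had 54 UMIs against 142, and Sh2d1a, the adaptor SAP that binds such receptors, had 63 against 149. Icos, a costimulatory receptor, had 255 and 247. Bcl6 had 2 and 3 UMIs and Cxcr5 2 and 2, so neither could be compared. Il21 had 20 and 16.

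Genes of naive and central memory T cells had the most one-sided host ratio in cycling cells among the lists with at least 10 genes measured. All 17 genes with at least 10 UMIs were higher in the MARCH1-/- host, with a median of 1.21, and 8 of the 14 with at least 50 UMIs were at least 2-fold higher, beside 7.59% of all genes. In the other cells 13 of 15 were higher, with a median of 0.81. Ccr7, the receptor that guides T cells to lymph nodes, had 13 UMIs in 10 cells against 100 UMIs in 18 cells, a ratio of 3.17 (2.34 to 4.13), and 5 cells held 74 of the 100. In the other cells its ratio was 0.25. Tcf7, the factor TCF1 of memory and stem-like T cells, had 35 UMIs in 14 cells against 76 in 25, a ratio of 1.35 (0.75 to 1.97). Klf2, a factor of quiescent and recirculating T cells, had 158 against 311 UMIs. Il7r, the interleukin 7 receptor, and Foxp1, a quiescence factor, differed little, with ratios of 0.14 and 0.12.

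Inhibitory receptors did not move together in the cycling cells. The co-inhibitory list had a median of -0.06 (7 higher, 10 lower of 17). Ctla4, which competes with CD28 for CD80 and CD86, was higher in the MARCH1-/- host with 693 CPM (643 to 745) against 489 (450 to 529), a ratio of 0.50 (0.35 to 0.66). Pdcd1, which encodes PD-1, had 158 CPM in both. Havcr2, which encodes TIM-3, was found in 38 of 106 against 13 of 70 cycling cells, a ratio of -1.56 (-2.28 to -0.89) beside -0.01 in the other cells. Tigit had 29 UMIs in 21 cells against 1 UMI, a ratio of -4.63 (-9.98 to -2.03) beside -2.43 in the other cells. Lag3 had a ratio of -0.46 (-0.89 to -0.03) beside 0.47 in the other cells. Tox, a factor of chronically stimulated T cells, had one of -1.05 (-1.47 to -0.64) beside -1.14 in the other cells.

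The gap in type 2 cytokines between hosts varied with marker UMIs, but without one order over all cells. With 3 to 9 marker UMIs, 42 cells of the wild-type host had 1532 CPM of Il4, Il5 and Il13 and 20 cells of the MARCH1-/- host had 1410 CPM, a log2 ratio of -0.12 (-0.34 to 0.10). The 5 richest cycling cells of the MARCH1-/- host all fell in this range. They held 223 of its 251 cytokine UMIs there, so that level, and the small ratio, rest on 5 cells. With 10 or more, 64 and 50 cells had 960 and 150 CPM, a ratio of -2.68 (-2.95 to -2.41). At 30 or more, 30 and 29 cells had 805 CPM (727 to 889) and 78.1 CPM (57.2 to 104), which is 10.3-fold lower in the MARCH1-/- host (7.57 to 14.3). A cytokine UMI was seen in 16 of those 30 and 11 of those 29 cells, so the share of positive cells differed less than the level. These wild-type levels lean on single cells too. In that host 1 cell held 183 of the 389 cytokine UMIs at 30 or more, and another held 228 of the 432 at 10 to 29. Among cells below the rule, the levels were 693 against 720 CPM at 0 marker UMIs, 1938 against 311 CPM at 1 and 452 against 142 CPM at 2. The hosts thus parted just below the rule too, but on few cells. At 1 marker UMI, 2 cells of the wild-type host held 238 and 182 of its 898 cytokine UMIs. At 2 marker UMIs, 6 of 18 cells of the wild-type host and 2 of 8 of the MARCH1-/- host held any. The bounds of 10 and 30 marker UMIs were chosen after the data were seen.

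**Figure D3:**
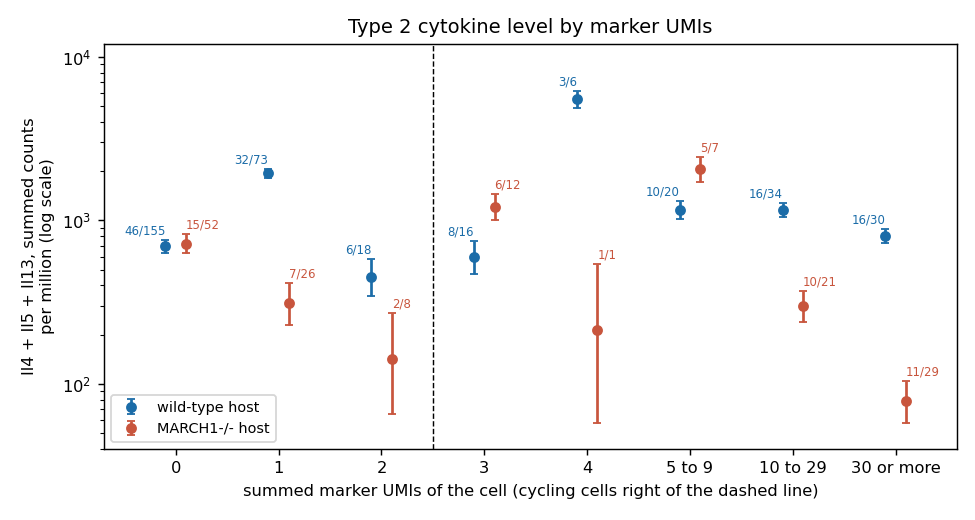
Summed Il4, Il5 and Il13 CPM (y axis, log scale, Poisson 95% intervals) of cells grouped by their marker UMIs (x axis) in the wild-type host (blue) and the MARCH1-/- host (red), with the number of cells holding a cytokine UMI over all cells of the bin. Right of the dashed line the hosts interleave up to 9 marker UMIs and part from 10 on, down to 805 against 78.1 CPM in the last bin, and left of it they part at 1 and 2 marker UMIs but not at 0.

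Other genes split in part along the same line. Il4 had a host ratio of 0.99 (0.35 to 1.63) at 3 to 9 marker UMIs and of -2.26 (-2.86 to -1.70) at 10 or more. Il13 went from -0.09 to -2.76, Areg from -0.09 to -1.42 and Il10 from -0.08 to -1.97. Il5 was lower in the MARCH1-/- host in both ranges, at -2.08 and -3.05, as was Il2ra, at -1.94 and -0.94. Gata3 went from 1.05 (0.66 to 1.44) to 0.09 (-0.16 to 0.34). Ctla4 was higher in both, at 0.67 and 0.52. The single bins are uneven. In the wild-type host, 6 cells with 4 marker UMIs held 273 of the 580 cytokine UMIs below 10, and the richest of them held 212. In the MARCH1-/- host, 5 cells held 223 of the 251 below 10.

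The stage of the cycle was read from the share of S phase UMIs among S phase and mitosis UMIs, whose median over all cycling cells was 38.1%. The medians of the libraries were 38% and 38.8%. Above that median, cytokine levels were 1258 CPM in the wild-type host and 489 CPM in the MARCH1-/- host, and at or below it they were 1028 and 216 CPM. The level was thus lower in the MARCH1-/- host on both sides of that median. In the wild-type host, 2 cells held 228 and 212 of the 727 cytokine UMIs above it, and 1 cell held 183 of the 674 at or below it. Within 5 points of the median lay 13 and 6 cells.

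Against the other cells of the same library, cycling cells differed in cycle genes because the rule chose them, so the ratios that follow are a description. S phase genes had a median log2 ratio of 2.21 in the wild-type host and 2.87 in the MARCH1-/- host, higher for 51 of 51 genes in each. Genes of G2 and mitosis had 3.70 and 3.26. Histone cluster genes made up 1.29% and 0.66% of UMIs in cycling cells and 0.0778% and 0.0643% in the others. Outside the cycle lists, Pclaf, the PCNA clamp factor, had 667 and 639 CPM against 21.7 and 7.63. Stmn1, which destabilizes microtubules, had 755 and 1134 against 82.3 and 64.8 CPM. Of genes with at least 50 UMIs, 6.08% were at least 2-fold higher and 4.96% lower in the wild-type host, and 9.17% and 7.14% in the MARCH1-/- host.

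Helper genes were mostly lower in CPM in cycling cells than in the others. CPM is a share of the UMIs of a class, and cycling cells held more UMIs each, so counts per cell can go another way. The type 2 list had 6688 UMIs in 106 cycling and 9951 in 246 other cells of the wild-type host. In the MARCH1-/- host it had 3488 in 70 and 3208 in 86. The median gene with at least 10 UMIs stood at -0.11 in both libraries, with 43.6% and 43.5% of genes higher. The type 2 list stood at -0.59 (5 higher, 24 lower) in the wild-type host and -0.87 (1 higher, 25 lower) in the MARCH1-/- host. For the type 1 and cytotoxic list the medians were -0.70 and -1.41, for type 17 -0.75 and -0.65, and for the regulatory list -0.43 and -1.0. The follicular list had -0.56 and 0.08, and -0.36 and -0.21 against other cells with at least 5000 UMIs. The other 4 lists stayed below 0 in that comparison. In the wild-type host Il4, Il5 and Il13 together had 1135 CPM in cycling and 1101 CPM in other cells, a ratio of 0.04 (-0.06 to 0.15). Il13 was higher there at 0.21 (0.08 to 0.34), while Il4 was lower at -0.41 (-0.68 to -0.14) and Il5 stood at -0.29 (-0.59 to 0.02). In the MARCH1-/- host the summed ratio was -0.54 (-0.77 to -0.32), but 0.38 with cells weighted equally and 0.60 with cells thinned to 2000 UMIs.

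Interferon response genes were lower in CPM in cycling cells for every gene with at least 10 UMIs. These were 26 of 26 in the wild-type host and 24 of 24 in the MARCH1-/- host, with medians of -1.18 and -1.91. Counts per cell differed less than CPM. The list had 5514 UMIs in 106 cycling and 13065 in 246 other cells of the wild-type host. In the MARCH1-/- host it had 2415 in 70 and 3540 in 86. Ifi27l2a, the most abundant, had 3335 CPM in cycling and 7389 CPM in other cells of the wild-type host, and 1394 and 3701 CPM in the MARCH1-/- host. Against other cells with at least 5000 UMIs, closer in depth with medians of 7719 and 7498, the medians were -0.65 (3 higher, 22 lower) and -1.85 (0 higher, 24 lower). Ccl5, a chemokine of effector memory T cells, had 8 and 2 UMIs in 3 and 1 cycling cells, with 6.48 and 1.90 CPM beside 185 and 111 CPM in the other cells. Il18r1, the interleukin 18 receptor, had ratios of -1.84 and -2.23, and Il7r of -1.39 and -1.69.

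Of 4 metabolic lists, 3 stood higher in cycling cells of both hosts. Nuclear-encoded oxidative phosphorylation genes had a median of 0.37 in both hosts, higher for 45 and 43 of 47 genes. Nucleotide and one-carbon genes had medians of 0.66 (19 of 19 higher) and 1.0 (20 of 21), and glycolysis genes 0.30 and 0.48. Cholesterol and lipid synthesis genes had -0.13 (12 higher, 19 lower) in the wild-type host and 0.37 (20 higher, 8 lower) in the MARCH1-/- host. Between the hosts, these genes had a median of 0.61 in cycling cells, with 25 of 30 higher in the MARCH1-/- host, beside 0.20 in the other cells.

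**Figure D4:**
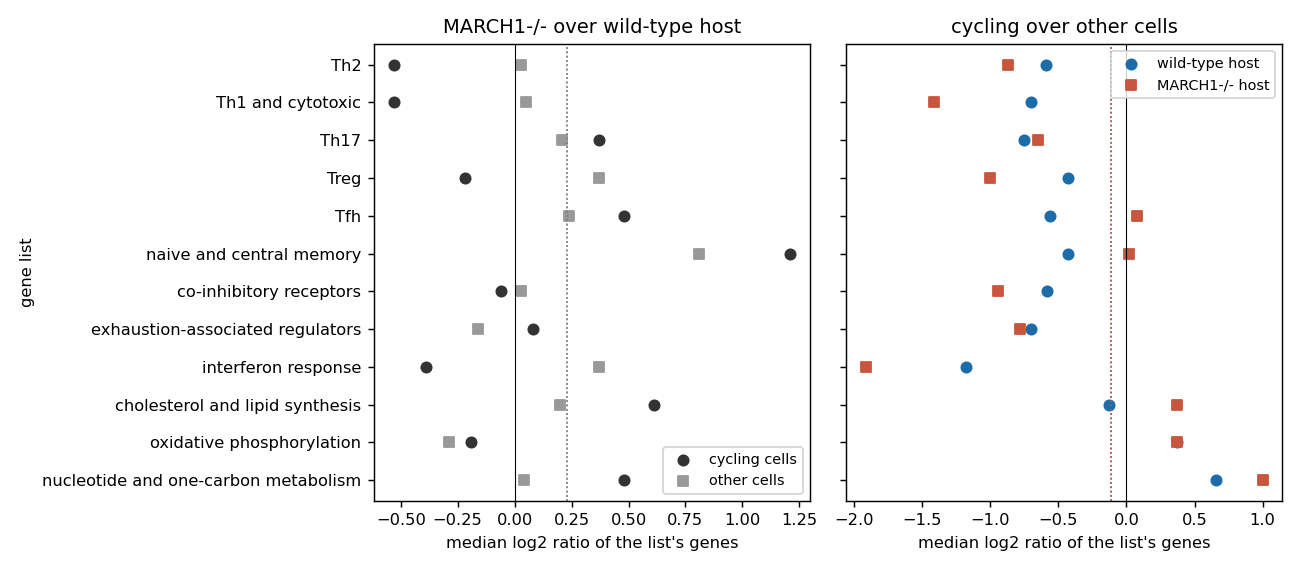
Median log2 ratio (x axis) of the genes with at least 10 UMIs in each of 12 lists (y axis), for the MARCH1-/- over the wild-type host (left, cycling cells as black circles, other cells as grey squares) and for cycling over other cells (right, wild-type host blue, MARCH1-/- host red). Dotted lines give the median of all genes, 0.23 on the left and -0.11 on the right. Farthest from them lies the naive list on the left and the interferon list on the right.

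Among the genes with the widest host ratios in cycling cells, several had much the same ratio in the other cells. Fam177a stood at -2.84 beside -2.77, Gstp1 at -3.30 beside -4.23, Cdk2ap1 at 3.69 beside 4.16, Rnaset2a at 3.20 beside 3.37 and Hypk at 3.64 beside 3.04. Rnaset2a and Rnaset2b, Gstp1 and the tubulin genes Tuba1a and Tuba1b have near-identical copies or pseudogenes, and Hypk overlaps a read-through transcript, so their counts are uncertain. The metallothionein genes Mt1 and Mt2, induced by zinc and glucocorticoids, had ratios of -2.23 and -2.97, and 5 cells held 255 of 501 and 74 of 101 UMIs in the wild-type host. Ccl1, a ligand of CCR8, had 90 UMIs against 4, with 83 of the 90 in 5 cells. Hdc, which makes histamine, had 78 against 3, with 76 of the 78 in 5 cells and 66 in the richest cell alone.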

How the data were processed

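Single-cell 3' RNA-seq of sorted donor CD4 T cells was deposited by the authors as 1 raw matrix per host. Values are whole-number UMI counts per gene and barcode with no normalization, per the file headers, for 32285 genes and all barcodes. The submitters' processing notes name Cell Ranger 3.1.0 and mm10, while the matrix headers name version 4 of that program. Which gene annotation was counted is not stated by the labels or headers.

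Barcodes counted as cells with at least 500 UMIs, at least 250 genes and a mitochondrial share of at most 10%. No doublets were removed, and leaving out those called by Scrublet was an alternative. The libraries held 3753437 and 1934068 UMIs, of which cycling cells of the wild-type and MARCH1-/- host held 1233836 and 1051163. Counts were summed per class of cells and library and scaled to 1e6 UMIs (CPM). Intervals are 95%: Poisson for sums, conditional binomial for ratios and Clopper-Pearson for shares, all exact. Differences of ratios have an exact conditional interval of the odds ratio. A count of 0 stands at a floor of 3 counts per class. List medians use genes with at least 10 UMIs, and 2-fold counts genes with at least 50. Shares use 1 random draw of 2000 UMIs per cell, which left out 1 cycling cell of the wild-type host. Free RNA was first bounded from genes of other lung cells. That bound, 52% and 70.5% of cell UMIs, rested on 30 and 5 UMIs and could not be used, so the mean of 6.52 and 2.7 UMIs per barcode under 100 UMIs was taken after it had been seen.

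The members and lists were chosen with earlier results of these data known. Named genes were 34 helper genes and the 5 markers, the 10 higher and 10 lower whose interval lay farthest from no change between hosts in cycling cells, and likewise for cycling over other cells in both libraries outside the cycle genes (at least 50 UMIs, seen in at least 5% of cells), and up to 4 further genes per list with the most UMIs. Genes outside the rule are said to be so, and some results are not reported here. March1 itself had 0 UMIs. The intervals were tested on simulated counts. Positions come from GENCODE M21 matched by gene ID, and upstream sequences from RefSeq on GRCm38.p6, matched by symbol for 8 of 8 genes. Software was scanpy 1.11.5 and scipy 1.17.1 under Python 3.11.15, with matplotlib 3.10.9, numpy 2.4.6 and pandas 2.3.3.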

Additional observations from a re-analysis of the deposited data

Results flagged for a closer look

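For 5 genes, cycling cells lay on opposite sides of the other cells in the 2 libraries, with both counting intervals clear of no change. The difference was not tested, since there was 1 library per host. The log2 ratio of cycling over other cells was 0.21 in the wild-type host and -0.69 in the MARCH1-/- host for Il13, 0.67 and -1.76 for Areg, and 0.38 and -0.40 for Il2ra. For Rgcc, a regulator of cell cycle kinases, it was -0.66 and 0.40. For Hdc it was 0.59 and -2.74. Of its 78 UMIs in cycling cells of the wild-type host, 5 cells held 76 and the richest cell alone held 66. For Il13, 5 of the other cells of the MARCH1-/- host held 180 of their 232 UMIs. Its shares of cells did not go opposite ways. At 2000 UMIs per cell they were 31.4% of cycling and 21.2% of other cells in the wild-type host. In the MARCH1-/- host they were 21.4% and 14.3%, and the intervals overlap in each host.

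Barcodes over the mitochondrial limit, which no comparison uses, also held marker transcripts. Of 72 such barcodes in the wild-type host library, 14 had at least 3 marker UMIs (19.4%), and of 25 in the MARCH1-/- host library, 5 had (20%). None of these 14 and 5 barcodes held an Il4, Il5 or Il13 UMI.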

How the results depend on the processing

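Recomputed were 15 results under 21 settings, 19 of them planned, and 71 named genes. Of the values for the 15 results, 270 kept their direction and stayed within the interval of the reported value (for list medians, that of a typical gene) or 1.5 times the count, 40 moved and 5 reversed, where reversed means a change of sign of a value whose interval lay clear of 0. Values with an interval that held 0, and list medians, that changed sign are among those that moved. The lower type 2 cytokine level of cycling cells in the MARCH1-/- host kept its sign throughout, at -1.26 with cells weighted equally, -1.19 thinned to 2000 UMIs, -1.89 centred on the median gene, and -1.84, -2.02 and -2.68 for cells with at least 5 marker UMIs, at least 3 per 10000 UMIs and at least 10. The difference of host ratios between cycling and other cells was -0.25 with equal weights, 0.07 thinned, -0.89, -1.30 and -2.01 under those 3 marker rules, -1.70 against cells with 0 marker UMIs and 0.22 without the 5 richest cells. Cytokines of cycling over other cells in the wild-type host were 0.63, 0.52, -0.27, -0.09, -0.32, 0.71 and -0.21 in the same order, -0.13 with at least 2 marker UMIs and -0.33 against cells of at least 5000 UMIs. In the MARCH1-/- host they were 0.38, 0.60, -1.16, -1.39, -2.33, -0.99 and 0.01 in that order and -0.90 against cells of at least 5000 UMIs. The rule on at least 10 marker UMIs and the removal of 5 cells were added after seeing the data, and the cause of these changes was not tested.

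The share of cycling cells in the wild-type host was 35.2%, 23.9% and 18.2% at 2, 5 and 10 marker UMIs, and in the MARCH1-/- host 36.5% and 32.1% at 5 and 10. The type 17 median changed sign to -0.41 with equal weights. Genes at least 2-fold higher and lower numbered 75 and 81 thinned, 157 and 304 centred, 747 and 292 with at least 20 UMIs, and 1336 and 460 at 1.5-fold, and 204 were higher with at least 100 UMIs. Named genes whose host ratio had an interval clear of 0 and changed sign were Il17a (0.09 at 2 marker UMIs, 0.22 at 3 per 10000), Il1rl1 (0.09 with equal weights, 0.44 thinned), Il4 (0.11 thinned), Esco2 (-0.09 thinned), Mki67 (-0.02 centred) and Top2a (-0.10 centred, -0.05 at 10 marker UMIs). Other named genes, whose intervals held 0, also changed sign, among them Ifng, Ccl5 and Ccr6 with equal weights, from -0.58 to 0.17, -1.77 to 0.02 and 0.47 to -0.68. Scrublet marked 16 and 5 cells as doublets, 6 and 3 of them cycling, and none of the 15 results left its range without them. No paired analysis was possible because each host has 1 library. Depth limits what can be said of Bcl6, Cxcr5 and Tbx21, with under 20 UMIs in the cycling cells of both libraries.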

Other observations

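Of 29 genes induced by T cell receptor signals, 22 were higher in cycling cells of the MARCH1-/- host, with a median log2 ratio of 0.54, beside 65.2% of all genes and a median of 0.23. In the other cells 20 of 29 were higher, with a median of 0.51. Junb, an AP-1 factor, had 529 CPM in the wild-type host and 1104 in the MARCH1-/- host, and Nfkbia, the inhibitor of NF-kB, 448 and 1115. Fos, also of AP-1, had 333 and 593. In the other cells the ratios of these 3 genes were 1.10, 1.38 and 0.50. Genes of dissociation and heat shock, some of which are the same early genes, had a median of 0.50 (15 higher, 6 lower), and their part in this result was not tested.

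Tissue and migration genes split within cycling cells. Crip1 and S100a6 were lower in the MARCH1-/- host, at 8485 against 4128 CPM and 4569 against 2273 CPM. Vim, the intermediate filament vimentin, was higher, at 1675 against 2857 CPM. Lgals1, which encodes galectin-1, was lower, at 6792 against 4182 CPM. Of 16 costimulatory genes, 12 were higher with a median of 0.40, a share not far from the 65.2% of all genes. Cd28, the receptor for CD80 and CD86, had 212 against 434 CPM, and Tnfsf8, the CD30 ligand, had 446 against 264 CPM.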
